A study of Mus musculus with 6 samples.

Results

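Zfhx3, Zfhx4, Satb1 and the long non-coding gene 2700069I18Rik, which is transcribed from the strand opposite to Zfhx4 and overlaps its start, were examined in the anterior and posterior regions of the developing mouse palate. These 4 members, of 56691 gene identifiers in the count files and 15673 genes tested, were matched by symbol. They were selected with their difference between the regions in these same libraries known, so their levels and fold changes are given as a description, without a test. The libraries were made from bulk RNA of the front (anterior palate, 3 libraries) and the rear (posterior palate, 3 libraries) of palatal shelves, microdissected from C57BL/6J embryos at E14.0, each region being 1/3 of the shelf. The labels name no deletion, transgene or treatment in either group, and how many embryos went into a library is not given in the sources used here. The comparison asked whether a gene's RNA differed in amount between the front and the rear of the same organ at the same age. Values over the libraries of a region are given in the order of replicates 1, 2 and 3, and log2 fold changes are those of the posterior over the anterior palate.

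ZFHX3 and ZFHX4 are very large nuclear proteins with many zinc fingers and several homeodomains, and both are known from developing neurons and muscle. ZFHX4 has been studied with CHD4, the ATPase of the chromatin-remodelling complex NuRD, and ZFHX3 is also known as ATBF1. SATB1 binds AT-rich DNA where chromatin loops are anchored, acts with histone deacetylases, and is best known from T cell development and the epidermis. The secondary palate grows as a pair of shelves of neural crest mesenchyme covered by epithelium, and its front forms the bony hard palate while its rear forms the muscular soft palate.

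Zfhx4 (ENSMUSG00000025255.19) lay at chr3:5218526-5415857 on the plus strand (GRCm38, GENCODE M21), and 2700069I18Rik (ENSMUSG00000086224.9) at chr3:5177586-5220841 on the minus strand. The antisense gene started 2315 bases inside Zfhx4 and ran out across its start, away from the body of Zfhx4. The annotated spans shared 2316 bases and the exons of the genes shared 0 bases. The first antisense exon lay in the first intron of Zfhx4, 1742 bases beyond the first Zfhx4 exon, and 664 bases before the start of a short Zfhx4 transcript, Zfhx4-204. The annotation held 5 transcripts of Zfhx4 and 2 of the antisense gene, which were 1020 and 334 bases long. A count on an exon of one gene could therefore be told from a count on the other by position as well as by strand. The first exon, which is the part of the antisense RNA that lies inside Zfhx4, and the small exon shared by both antisense transcripts are shown as they read in the RNA, 5′ to 3′. Both come from the minus strand of chr3 in the GENCODE M21 transcript 2700069I18Rik-202, and the first at chr3:5220670-5220841 (172 bases) opens with 18 bases in capitals that the other transcript lacks. The shared exon was at chr3:5178980-5179041 (62 bases).
2700069I18Rik exon 1: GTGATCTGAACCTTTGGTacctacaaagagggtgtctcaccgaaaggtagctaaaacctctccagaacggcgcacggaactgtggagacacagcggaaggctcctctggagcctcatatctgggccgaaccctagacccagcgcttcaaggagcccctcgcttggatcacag
2700069I18Rik shared exon: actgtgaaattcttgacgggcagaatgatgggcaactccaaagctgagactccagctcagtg
The first exon had a GC content of 56.4% and 8 CpG dinucleotides, against 1 CpG in the shared exon.

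**Figure D1:**
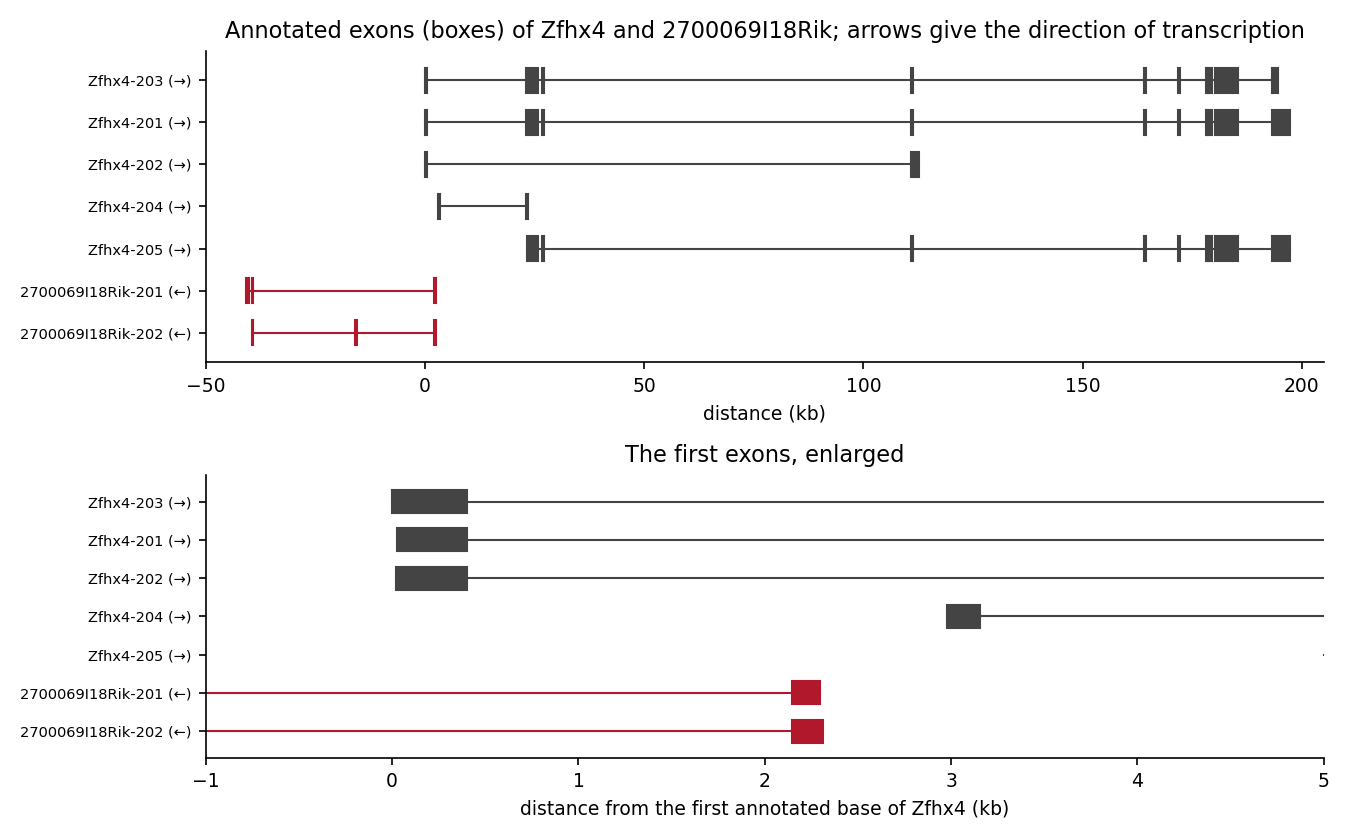
Exons (boxes) of each annotated transcript of Zfhx4 (dark grey, transcribed to the right) and 2700069I18Rik (red, to the left), by distance in kb from the first base of Zfhx4. The lower panel enlarges the start, where the antisense first exon lies in the first Zfhx4 intron and no exon of one gene meets an exon of the other.

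Reverse-stranded counts ranged from 11378736 to 15172733 per library, and 3 counts, the limit that a count of 0 allows for counting error only, equalled 0.198 to 0.264 CPM (CPM are counts scaled to library size). Posterior replicates 2 and 3 stood apart from the other 4 libraries. Their share of reads mapping to several places was 6.12% and 5.94%, against 8.45% to 8.77%, and mitochondrial genes held 0.973% and 1.14% of their counts, against 2.70% to 2.97%. Both are posterior, so this grouping can be told from region only through posterior replicate 1. The region labels matched their known markers, with Shox2 and Msx1 higher in every anterior library, and Meox2 and Tbx22 higher in every posterior one. In bulk tissue, fewer cells of a type and less RNA per cell cannot be told apart.

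Zfhx4 was higher at the front of the palate than at the rear. Its normalised level was 221, 238.5 and 197 CPM in the anterior libraries, from 2922, 3288 and 2277 counts. The posterior libraries had 57.6, 68.8 and 105 CPM, from 771, 955 and 1536 counts. The regions did not overlap, and the lowest anterior library was 1.87 times the highest posterior one. Mean levels were 219 ± 21.1 CPM for the anterior and 77.2 ± 24.8 CPM for the posterior region (SD, n = 3 each), a 2.84-fold difference and a log2 fold change of -1.50 (standard error 0.22). The posterior libraries varied more than the anterior ones, with a coefficient of variation of 32.2% against 9.63%, and posterior replicate 3 was the highest of them.

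The antisense gene 2700069I18Rik differed most between the regions. It had 113, 135 and 84 counts in the anterior libraries, against 18, 17 and 19 in the posterior ones. These are levels of 8.56, 9.79 and 7.25 CPM at the front, against 1.34, 1.22 and 1.3005 CPM at the rear. Every posterior library lay below all anterior ones. Means were 8.54 ± 1.27 and 1.29 ± 0.0607 CPM (SD, n = 3 each), a 6.62-fold difference and a log2 fold change of -2.72 (standard error 0.21). Its posterior values rest on fewer than 20 counts per library.

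**Figure D2:**
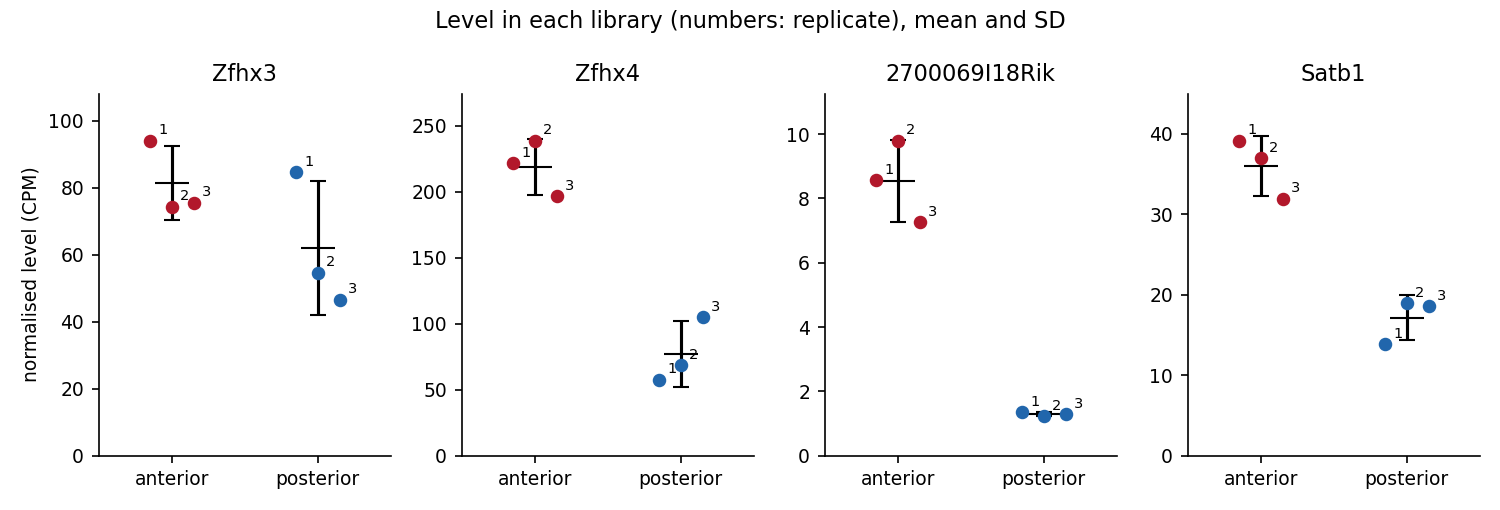
Normalised level (CPM, y axis, a separate scale per gene) of the 4 members in each library, with the replicate number beside each point and the mean and SD in black. The anterior points (red) lie above all posterior points (blue) for Zfhx4, 2700069I18Rik and Satb1, whereas for Zfhx3 posterior replicate 1, at 84.6 CPM, lies among the anterior points.

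Satb1 (ENSMUSG00000023927.16; chr17:51736187-51833290, minus strand) was also higher at the front. Its level was 39.2, 37.0 and 31.9 CPM in the anterior libraries, from 517, 510 and 370 counts. At the rear it was 13.9, 18.9 and 18.5 CPM, from 186, 263 and 271 counts. Here posterior replicate 1 was the lowest library, and no posterior library reached an anterior one. The means of 36.0 ± 3.70 and 17.1 ± 2.81 CPM (SD, n = 3 each) differed 2.10-fold, with a log2 fold change of -1.07 (standard error 0.15). SATB1 is known from T cells, and of 7 T cell markers only Lck passed the filter on low counts. Their sum was 6.75 to 7.94 CPM in anterior and 4.04 to 6.12 CPM in posterior libraries, nearly all of it Lck. Lck had 91, 89 and 85 counts at the front and 66, 78 and 52 at the rear, without overlap, and was not called (log2 fold change -0.55, standard error 0.21). Cd3e, Cd3d, Cd8a and Ptcra were at 0 in every anterior library, while Cd3g and Cd4 had between 1 and 5 counts there and between 0 and 5 in the posterior libraries. The part of T cells in the level of Satb1 was not tested.

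Zfhx3 (ENSMUSG00000038872.11; chr8:107942644-108961630, plus strand) did not separate the regions. It was at 94.0, 74.3 and 75.6 CPM in the anterior libraries, from 1241, 1024 and 875 counts. The posterior libraries had 84.6, 54.6 and 46.5 CPM, from 1132, 758 and 680 counts. The posterior libraries were split, with replicate 1 between the anterior values and replicates 2 and 3 below all of them. Means were 81.3 ± 11.03 and 61.9 ± 20.0 CPM (SD, n = 3 each), and the log2 fold change was -0.39 (standard error 0.22). The 2 libraries below the anterior range are those with the low share of reads mapping to several places. With a term for these 2 libraries the log2 fold change of Zfhx3 was 0.057, and without posterior replicate 1 it was -0.68.

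Called at an adjusted p below 0.05 by edgeR's quasi-likelihood test were 3 of the 4 members, all higher in the anterior palate. Over the 15673 genes tested, 7.46% were called in either direction and 2.59% were called higher in the anterior palate. The 3 anterior libraries lay above the 3 posterior ones for the same 3 members, and for 13.3% of all genes tested. Since the members were selected on this contrast, nothing is read from these counts. With the term for the 2 libraries that stood apart, the log2 fold change was -1.93 for Zfhx4, -2.66 for 2700069I18Rik and -1.38 for Satb1.

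Compared per kb of exon, pooled over all annotated transcripts of a gene, the order of the members changed between the regions. In the anterior palate Zfhx4 was at 13.9 ± 1.34 CPM per kb, 2700069I18Rik at 7.50 ± 1.12, Zfhx3 at 3.87 ± 0.526 and Satb1 at 1.89 ± 0.194 (SD, n = 3), and no neighbours in this order overlapped. In the posterior palate Zfhx4 (4.90 ± 1.58 CPM per kb) and Zfhx3 (2.95 ± 0.955) overlapped, followed by 2700069I18Rik (1.13 ± 0.0533) and Satb1 (0.900 ± 0.148), whose ranges did not meet. The antisense gene thus lay above Zfhx3 at the front and below it at the rear. The ratio of Zfhx4 to Zfhx3 per kb was 3.14, 4.28 and 3.47 in the anterior libraries. Among the posterior libraries it was 0.908, 1.68 and 3.01, and Zfhx3 was the higher of the pair in replicate 1 alone.

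The antisense gene was lower in the posterior palate also relative to Zfhx4. For every 100 reads counted on Zfhx4 there were 3.87, 4.11 and 3.69 antisense reads in the anterior libraries, against 2.33, 1.78 and 1.24 in the posterior ones. The means were 3.89 ± 0.209 and 1.78 ± 0.549 (SD, n = 3 each), and the ranges did not overlap. The exact 95% binomial interval of posterior replicate 1 (1.38 to 3.71) reached into those of the anterior libraries (lowest bound 2.93), and those of posterior replicates 2 and 3, up to 2.87 and 1.94, did not. These intervals cover counting error only. Both genes were in the contrast on which the members were selected, so this ratio is a description too.

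The deposited counts for the other strand, which the selection did not use, were read as well. Their share of Zfhx4 reads has the selected Zfhx4 counts in its denominator, so the share is not free of the selection. Reads on the opposite strand of Zfhx4 exons numbered 100, 114 and 70 in the anterior libraries, or 3.31%, 3.35% and 2.98% of its reads. The posterior libraries had 27, 8 and 8 of them, or 3.38%, 0.831% and 0.518%. Posterior replicate 1 thus had the anterior share and replicates 2 and 3 did not, with exact 95% intervals of 2.24% to 4.88%, 0.359% to 1.63% and 0.224% to 1.02%. Genes with at least 500 reads and no annotated gene on the other strand had median shares between 0.368% and 0.797% by library, the highest in posterior replicate 1. Zfhx4 was above the 98th percentile of those genes in the anterior libraries and in posterior replicate 1, and at percentiles 82.2 and 63.8 in posterior replicates 2 and 3. Zfhx4 itself has an annotated gene on the other strand, as has Zfhx3. Genes of that kind with at least 500 reads had higher medians, 0.607% to 1.12% by library, and ranks among them were not computed. The antisense gene's annotated exons share no base with Zfhx4 exons, so its annotated reads are not among these opposite-strand reads.

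A high share was not particular to Zfhx4. Zfhx3 had between 12 and 34 opposite-strand reads (1.73% to 2.67% of its reads). Its percentiles among genes with no annotated gene on the other strand were 92.9 to 98.7. In posterior replicates 2 and 3 its share, 2.32% and 1.73%, was above that of Zfhx4. Satb1 had between 1 and 6, and 2700069I18Rik between 0 and 2. The unstranded count equalled the sum of both strands for Zfhx4, Zfhx3 and Satb1 in all 6 libraries, and for 2700069I18Rik it was short by 2 in anterior replicate 1 and by 1 in anterior replicate 2. With the unstranded counts the log2 fold changes were -1.53 for Zfhx4 and -2.67 for 2700069I18Rik, so the choice of strand moved neither by more than its standard error.

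**Figure D3:**
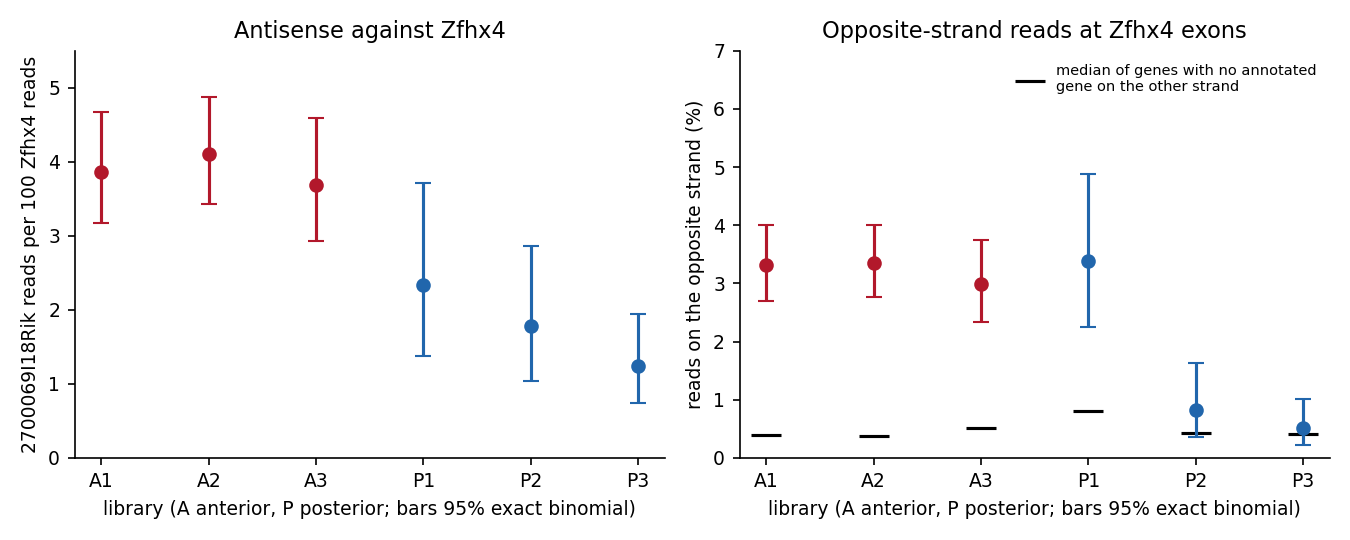
Left, 2700069I18Rik reads per 100 Zfhx4 reads in each library; right, the percentage of reads on Zfhx4 exons that came from the opposite strand, with the median of genes lacking an annotated gene on that strand as a black dash. Bars are exact 95% binomial intervals; posterior replicate 1 has a low ratio on the left (2.33) and an anterior-like share on the right (3.38%).

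The 3 coding members have many bases of exon, each base counted once over all annotated transcripts of a gene. This exon length marked the libraries that stood apart. Among the 2625 tested genes with over 8 kb of exon, the median log2 ratio to the anterior mean over the posterior libraries was -0.03, 0.39 and 0.41. In genes of 1 to 2 kb, the class of 2700069I18Rik, these medians were 0.05, -0.25 and -0.31. Zfhx4, Zfhx3 and Satb1, with 15737, 20976 and 19027 bases of exon, were thus lower than the anterior mean in posterior replicates 2 and 3, where the median of long genes was above it. With a correction for exon length the log2 fold changes were -1.90 for Zfhx4, -1.52 for Satb1, -0.72 for Zfhx3 and -2.55 for 2700069I18Rik.

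**Figure D4:**
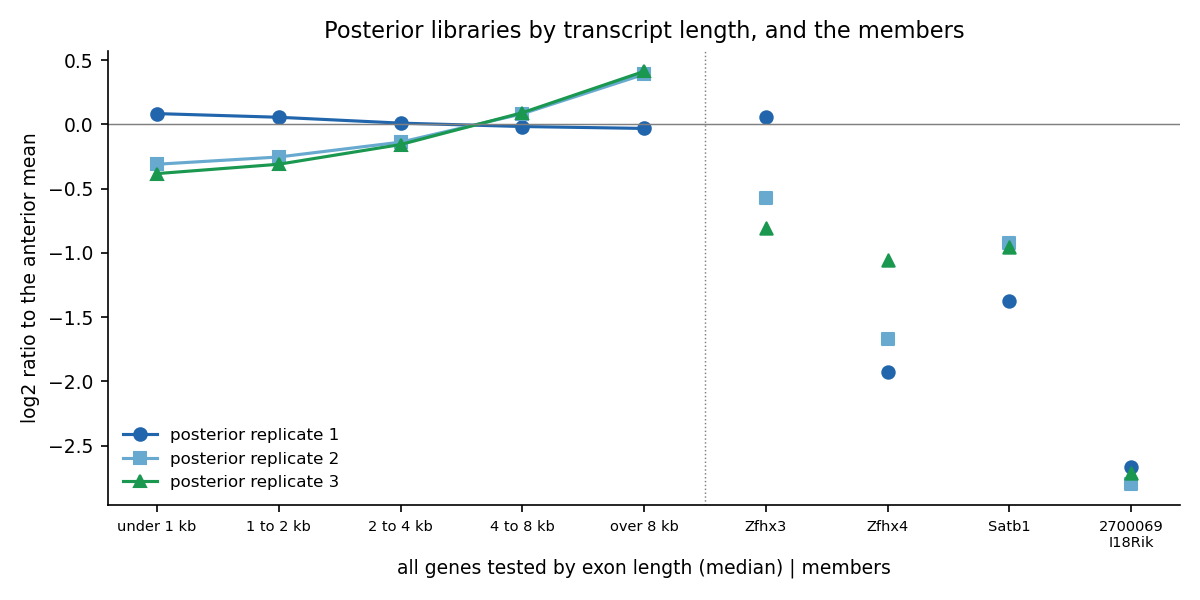
Left of the dotted line, the median log2 ratio of each posterior library to the anterior mean for all tested genes by exon length; right of it, the same ratio for each member. Over 8 kb the medians of posterior replicates 2 and 3 are 0.39 and 0.41, while every posterior point of Zfhx4, Satb1 and 2700069I18Rik lies below 0.

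Of 18 related homeobox genes (the zinc-finger class and the cut class, with the Zfhx2 antisense gene), 15 were tested and 1 was called. Over all genes tested, 7.46% were called in either direction. The call was on the posterior side, and 0 were called on the anterior side, where 2.59% of all genes tested were. The 15 tested genes had a median log2 fold change of 0.24, against -0.0040 over all genes tested, and 4 had an unadjusted p below 0.05 in edgeR. The share of all genes at that unadjusted threshold is not given here, so nothing is read from such counts in any list. The called gene was Zeb1, a repressor known from epithelial-to-mesenchymal transition, with means of 61.1 ± 7.08 CPM at the front and 87.3 ± 4.93 CPM at the rear (SD, n = 3 each). It had a log2 fold change of 0.51 with a standard error of 0.11 and an adjusted p of 0.0335 in edgeR's quasi-likelihood test, and the call was lost with the replicate number as a block. On leaving out any 1 library 0 related genes were called, except without posterior replicate 1, where 8 were and 46.4% of all genes tested were called. Zfhx2, the remaining Zfhx paralogue, was at 16.03 ± 1.26 and 21.9 ± 4.90 CPM with overlapping ranges, and its log2 fold change of 0.45 (standard error 0.18) was not called. Among the teashirt genes, Tshz1 (-0.31) and Tshz2 (-0.42) had negative log2 fold changes and Tshz3 (0.24) a positive one, and none was called.

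**Figure D5:**
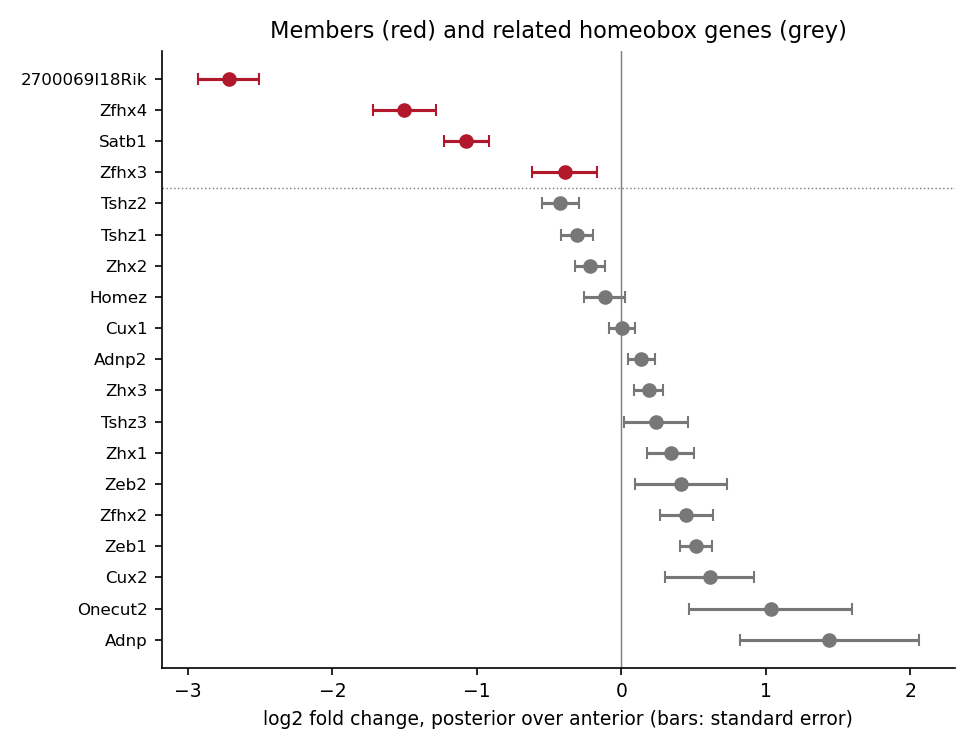
Log2 fold change, posterior over anterior, with its standard error for the members (red) and the 15 tested related homeobox genes (grey), each ordered by value. The members 2700069I18Rik (-2.72), Zfhx4 (-1.50) and Satb1 (-1.07) were selected with this difference known, so their place beside the related genes is no comparison. The called related gene, Zeb1, is on the posterior side.

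The 14 listed subunits of NuRD, the complex linked to both ZFHX4 and SATB1, were all tested. Of them 0 were called by edgeR, where 7.46% of all genes tested were called, 0 by DESeq2 and 0 by limma-voom, with 2 at an unadjusted p below 0.05 in edgeR. Their median log2 fold change was -0.12. Chd4 was at 487 ± 24.4 and 497 ± 73.0 CPM, and the deacetylase gene Hdac1 at 141 ± 2.68 and 130 ± 8.85 CPM, in the anterior and posterior palate (SD, n = 3 each). Without posterior replicate 1, 9 of the 14 were called, where 46.4% of all genes tested were called.

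Genes near the coding members were counted without the members themselves, so the antisense gene at Zfhx4 is not among them. Within 1 Mb of the starts of Zfhx3, Zfhx4 and Satb1 the annotation held 74 genes, of which 15 were tested, and 0 were called by edgeR, where 7.46% of all genes were (4 at an unadjusted p below 0.05; 2 called by DESeq2, which called 12.6% of all genes, 0 by limma-voom, and 9 by edgeR without posterior replicate 1, where 46.4% of all genes tested were called). Around Zfhx4 the tested gene, apart from the antisense member, was Pex2, a peroxisome biogenesis gene that starts 358 kb away. Its means were 35.5 ± 1.29 CPM at the front and 36.0 ± 1.24 CPM at the rear (SD, n = 3 each), a log2 fold change of 0.019 (standard error 0.09). Gm10748, which lies within the antisense gene 5.69 kb before the start of Zfhx4, had between 0 and 2 counts per library. Near Satb1 the tested gene was Tbc1d5, at 37.1 ± 1.81 and 29.7 ± 2.74 CPM and not called (log2 fold change -0.32, standard error 0.11).

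Several provisional annotations inside or before Satb1 had too few counts to be tested. Gm37248, within Satb1 and on its strand, had 14, 7 and 5 counts in the anterior libraries, against 5, 2 and 0 in the posterior ones. In 5830444F18Rik, also within it, there were 15, 10 and 5 counts at the front and 5, 1 and 2 at the rear. The other 4 annotations overlapping Satb1, E430014B02Rik, C230085N15Rik, Gm36931 and Gm6934, had between 0 and 4 counts per library, and C230085N15Rik (1, 1 and 1 against 1, 0 and 2) and Gm6934 (0, 1 and 0 against 0, 0 and 2) were not higher at the front. Before the start of Satb1, at 25.9 kb from it, Gm37176 had 15, 12 and 8 counts at the front and 0, 1 and 2 at the rear, and it was chosen after its values were seen. The annotations overlapping Zfhx3 had at most 10 counts in any library. Reads of unspliced Satb1 RNA and of a gene within it on the same strand cannot be told apart.

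Other developmental genes with a non-coding partner gene at the same locus were placed beside the Zfhx4 pair, and both genes were tested in 7 of the 18 pairs listed. Apart from the Zfhx4 pair, both partners were called on the anterior side in 3 of the other 6, namely the pairs of Six3, Foxd2 and Sox2. Over all genes tested 2.59% were called on that side, but this share is of single genes, not of pairs. The Zfhx4 pair was selected on this contrast, and the list of pairs was chosen with earlier results of these data known. Nothing is read from the count of pairs. Sox2 and Sox2ot, which is transcribed over it on the same strand, had log2 fold changes of -0.99 and -1.93, Six3 and Six3os1 of -4.21 and -3.92, and Foxd2 and Foxd2os of -4.10 and -3.16. Reads per 100 coding reads averaged 3.09 at the front and 1.64 at the rear for Sox2ot, 123.7 and 110.3 for Six3os1, and 58.1 and 122.9 for Foxd2os. At the rear Six3os1 was at 0.909 ± 1.28 CPM, with an SD above its mean, and Six3 at 0.596 ± 0.299 CPM (SD, n = 3 each). Foxd2os was there at 1.92 ± 1.13 CPM and Foxd2 at 1.74 ± 1.301 CPM (SD, n = 3 each), and differences between these ratios were not tested. The pairs of Dlx6, Dlx1 and Pou3f3 had no called gene, with log2 fold changes of -1.66, 0.76 and 0.59 for the coding genes and -0.65, -3.86 and 0.15 for Dlx6os1, Dlx1as and Pantr1. The value of Dlx1as has a standard error of 1.78, and its anterior level was 55.4 ± 94.5 CPM (SD, n = 3).

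Genes with profiles most like each member were found by the root mean square difference of centred log2 CPM over the 6 libraries, among 14113 genes. Nearest to Zfhx4 was Bmp6, a secreted bone morphogenetic protein (difference 0.14 on the log2 scale), with 62.5 ± 4.28 CPM at the front and 21.2 ± 5.39 CPM at the rear (SD, n = 3 each), and Galnt13, a glycosyltransferase gene, was also close (0.17). Nearest to 2700069I18Rik were Lrrc55 (0.16), Acp5, which encodes the acid phosphatase of osteoclasts (0.18), and Zmat4 (0.18), not Zfhx4, from which it differed by 0.58. Satb1 lay nearest to the melanocortin receptor gene Mc5r (0.09), the claudin gene Cldn10 (0.11) and Mab21l1 (0.11). Zfhx3 lay nearest to Dapl1 (0.06), Spa17 (0.08) and 2810402E24Rik (0.08), which share its split of the posterior libraries. Between the members the closest pair was Zfhx4 and Satb1 (0.31) and the farthest 2700069I18Rik and Zfhx3 (1.11).

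Markers of several cell types differed in level between the regions. Skeletal muscle markers summed to 7.57 to 13.0 CPM at the front and 571 to 1023 CPM at the rear, with 8 of 8 called and none at 0 in every library of a region. Neuronal markers summed to 51.9 to 57.2 CPM in the anterior libraries, against 72.7, 317 and 47.6 CPM in the posterior ones, with 2 of 7 tested called on the posterior side and 1, Isl1, on the anterior side. Posterior replicate 2, the library with the highest neuronal sum, was the middle posterior library for Zfhx4 and Zfhx3, the highest for Satb1 and the lowest for 2700069I18Rik. Epithelial markers summed to 1253 to 1382 CPM at the front and 887 to 1472 CPM at the rear (1 of 8 called, Trp63, on the anterior side), and palatal mesenchyme markers to 5610 to 6740 and 7672 to 11533 CPM. Of the 6 mesenchyme markers Prrx1 was called on the anterior side (log2 fold change -1.34) and Twist1 (0.74) and Pdgfra (1.06) on the posterior side, and most of the sum was Col1a1, with means of 4393 and 7876 CPM. Their part in the levels of the members was not tested.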

How the data were processed

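Bulk RNA-seq counts of 6 libraries, 3 anterior and 3 posterior, were analysed. For each library the authors deposited unnormalised read counts by Ensembl gene, unstranded and by strand, in the layout STAR writes. The methods name HISAT2, StringTie and DESeq2 (1.30.1 in the submitters' processing notes) and the mm10 build. The annotation version is not given in the sources used here. The members and gene lists were chosen with earlier results of these data known.

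Reverse-stranded counts were used. The low-count filter kept genes reaching 10 counts in 3 or more libraries. The regions were compared in R 4.3.3 by edgeR (4.0.16; TMM, quasi-likelihood test, a single term for region, Benjamini-Hochberg adjustment over all genes, threshold 0.05). CPM are TMM-scaled. Symbols, exon lengths and positions came from GENCODE M21, which named 52073 identifiers when versions were ignored. Exon length counts each base once over all annotated transcripts of a gene, so it can exceed the length of any single transcript. The study describes the libraries as biologically independent samples, and within a region they differed beyond sampling noise (chi-square per gene 3.44 to 67.5). On simulated data edgeR recovered 200 of 200 changed genes with 11 false calls among 15766. How well it recovers changes in the real libraries, with their split within the posterior region, was not tested.

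Named genes were the members, the 3 most alike for each among genes with at least 1 CPM on average in each region, called genes of each list, adjacent or overlapping neighbours, and antisense pairs with both genes tested. A prior count of 2 was used for log2 CPM there. Myeloid, glial, endothelial and erythroid marker lists were also summed. The alternatives were DESeq2 1.42.0, limma-voom (limma 3.58.1), RLE or no normalization factors, other low-count filters and unstranded counts. Others were a replicate block, a term for posterior replicates 2 and 3 (library-group term), an exon length correction and leaving out each library. The results of some genes are not reported here.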

Additional observations from a re-analysis of the deposited data

How the results depend on the processing

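Zfhx4, 2700069I18Rik and Satb1 were called, with a negative log2 fold change, under all 16 alternatives, which is no independent support since they were selected on this contrast in these libraries. Their log2 fold changes ranged from -1.93 to -1.50, from -2.76 to -2.55 and from -1.52 to -1.07 (leaving out a library, from -1.79 to -1.33, -2.83 to -2.61 and -1.15 to -0.94). For Zfhx3 it turned to 0.057 with the library-group term, and leaving out a library gave -0.68 to -0.22, called only without posterior replicate 1. The count of genes called, 1169, was 1978 with DESeq2, 2162 without the low-count filter, and 498 to 7119 leaving out a library, the highest without posterior replicate 1. Genes called higher in the anterior palate, 406, became 237 with the replicate block, 637 with DESeq2, 646 without the low-count filter and 140 to 3242 leaving out a library. Of the related homeobox genes 0 were called with the replicate block (5.29% of all genes tested), 2 with the library-group term (7.61%) and 0 to 8 leaving out a library. NuRD genes called were 0 to 9 and neighbours 0 to 9 leaving out a library, both highest without posterior replicate 1, where 46.4% of all genes tested were called. Neighbours called were 2 with DESeq2 (12.6% of all genes tested), 2 without the low-count filter (7.14%), 2 with the library-group term (7.61%), 1 with unstranded counts (7.16%) and 1 with the length correction (8.74%). The cause of these shifts was not tested. Whether same-numbered libraries came from the same embryos is not given in the sources used here. Their deviations had correlations of -0.053, 0.045 and 0.036, which cannot decide this, since the posterior libraries were split. The replicate block changed no call of a member. The posterior counts of 2700069I18Rik limit the precision of its ratio to Zfhx4.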

Other observations

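Glial markers summed to 54.0 to 60.6 CPM in the anterior and 60.6 to 86.4 CPM in the posterior libraries, and 1 of 6 was called, Erbb3, higher in the posterior palate. Endothelial markers summed to 393 to 410 and 343 to 562 CPM, myeloid markers to 76.9 to 89.7 and 80.0 to 84.8 CPM, and erythroid markers to 1096 to 1339 and 791 to 1501 CPM, with 0 of 6 called by edgeR in each list. At an unadjusted p below 0.05 there were 1, 2 and 0 of them.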
